A study of Homo sapiens with 9 samples.

Results

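The genes described here are 9 targets of NRF2, the transcription factor encoded by NFE2L2, and of glutathione metabolism: SLC7A11, GCLC, GCLM, TXNRD1, SRXN1, NQO1, HMOX1, MGST1 and AKR1B10. They were fixed by name, and each was represented by the transcript with the highest total count over the 9 libraries. These genes and the lists below were chosen with earlier results of these data known. Their shares called are therefore descriptions and not independent support. All 9 were present among the 20878 gene names of the count table. All 9 passed the filter on low counts, AKR1B10 through a single line only, among 14255 genes tested. Polyadenylated RNA was sequenced from SW480, a human colorectal cancer cell line with truncated APC, and from 2 lines made from it. The CONTROL line, R38.7, carried the empty pEF vector, and the APC line, D2.15, carried pEF-mycAPC, which encodes APC with a myc tag, a scaffold protein needed to degrade beta-catenin. The 3 lines each gave 3 libraries, from plates seeded in parallel and harvested after 72 h. CONTROL and APC were kept in 1.5 mg/ml G418 and SW480 without it, and fewer cells were plated of the APC line than of the others. All 3 lines shared a medium with serum, insulin, hydrocortisone and thioglycerol, a thiol compound that can act as a reducing agent. Each transfected line is a single line, so the construct, the clone and the plating density of the APC line cannot be told apart, nor can the vector, the clone and G418 in CONTROL. Against SW480, the vector and G418 cannot be told apart from these in the APC line either.

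NRF2 is bound in resting cells by KEAP1, an adaptor of the CUL3 ubiquitin ligase, and degraded. Oxidants and electrophiles modify KEAP1, NRF2 then accumulates, pairs with a small MAF protein and binds antioxidant response elements, which the repressor BACH1 also occupies. Its targets import cystine, build glutathione, recycle thioredoxin and clear quinones, haem and reactive aldehydes, tasks of a colon epithelium that faces compounds from the gut lumen.

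Promoter windows of the RefSeq table (build GRCh38.p14, from 250 bases before to 50 bases after a start site) were available here for 6 of the 9 genes. They were searched on both strands for the core of the antioxidant response element, written TGACNNNGC, which also covers part of the related AP-1 and NF-E2 motifs. A match was found in 13.35% of all windows, 4687 of 35116. Matches lay in the window of GCLM, in both windows of TXNRD1 and in 1 of 3 windows of MGST1. The match of MGST1 began at base 31 after the start site. The bases after the start site in that window were not found in any reference transcript of the gene. No match to these letters was found in the windows of NQO1, GCLC and SRXN1. Sequence farther upstream was not searched, so this does not show that these genes lack the element. GCLM and TXNRD1 are shown because they moved in opposite directions between the lines although the windows of both hold the motif. The 250 bases before each start site are given in the direction of the gene, with the motif in capitals. They are chr1:93909431-93909680 on the minus strand for GCLM, chr12:104215529-104215778 on the plus strand for the first window of TXNRD1, and chr12:104286782-104287031 on the plus strand for the second.
GCLM: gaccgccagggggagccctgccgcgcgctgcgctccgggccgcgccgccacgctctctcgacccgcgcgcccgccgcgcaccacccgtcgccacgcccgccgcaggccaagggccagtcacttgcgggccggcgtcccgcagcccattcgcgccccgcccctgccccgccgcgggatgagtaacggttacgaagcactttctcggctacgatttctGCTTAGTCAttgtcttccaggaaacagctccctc
TXNRD1 window 1: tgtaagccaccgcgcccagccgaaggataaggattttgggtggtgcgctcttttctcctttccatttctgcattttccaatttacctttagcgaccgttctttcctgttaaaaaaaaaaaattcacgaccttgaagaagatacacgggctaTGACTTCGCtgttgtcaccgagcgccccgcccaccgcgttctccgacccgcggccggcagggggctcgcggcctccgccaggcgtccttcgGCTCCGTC
TXNRD1 window 2: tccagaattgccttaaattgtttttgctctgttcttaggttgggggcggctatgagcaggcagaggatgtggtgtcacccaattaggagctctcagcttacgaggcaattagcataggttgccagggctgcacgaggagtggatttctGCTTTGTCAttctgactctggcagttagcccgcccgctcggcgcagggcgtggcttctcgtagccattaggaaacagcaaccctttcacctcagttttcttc
The match in GCLM is TGACTAAGC on the opposite strand, 34 bases before the start site. Window 1 of TXNRD1 holds TGACTTCGC 99 bases before the start site and TGACGGAGC on the opposite strand 8 bases before it. The latter runs past the start site, so its capitals above are incomplete. Window 2 holds TGACAAAGC on the opposite strand 102 bases before the start site. A match describes the letters and does not show that NRF2 bound there in these cells.

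The libraries were of similar depth, with 16456738 to 19358025 counts over genes, so that 3 counts were worth 0.156 to 0.184 CPM (counts scaled to library size, with TMM factors). Intervals and limits drawn from counts cover counting error only. APC transcript was measured at 140 to 150 CPM in the APC line, against 46.3 to 51.5 CPM in the other 6 libraries. Epithelial markers summed to 5400 to 6380 CPM in every library, mostly KRT8 and KRT18. Against SW480, 4 of the 7 epithelial markers tested were higher in the APC line and 3 lower: EPCAM stood at 49.4, 42.4 and 382 CPM in SW480, CONTROL and the APC line, CDH1 at 7.23, 8.73 and 133, and VIL1 at 0.304, 0.414 and 4.62, while CDX2 stood at 27.1, 24.7 and 14.9. KRT8 was also higher, and KRT18 and KRT19 were the other 2 that were lower. LGALS4, an intestinal epithelial gene, stood at 0.107 to 0.152 CPM by group and was hardly detected. Summed leukocyte markers were 2.42 to 2.64 CPM in SW480, 0.921 to 1.50 in CONTROL and 2.53 to 2.95 in the APC line, with PTPRC listed at 0 throughout. Within that sum, ITGAM stood at 0.0537, 0.0352 and 1.03 CPM in SW480, CONTROL and the APC line. Fibroblast markers summed to 16.4 to 18.3, 12.8 to 15.8 and 11.7 to 13.0 CPM, with COL3A1 and DCN at 0. COL1A1 made up most of this sum, and PDGFRB stood at 3.90, 3.17 and 0.0766 CPM. Endothelial markers summed to at most 1.52 CPM. The part of these markers in the results was not tested. In bulk RNA, fewer cells expressing a gene and less of its RNA per cell cannot be told apart.

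CONTROL against SW480 shows what the vector line alone carried, and it moved the 9 genes mostly one way. SLC7A11, MGST1, TXNRD1, NQO1, GCLC, SRXN1, HMOX1 and AKR1B10 were higher in CONTROL, from 1.21-fold for HMOX1 to 4.15-fold for SLC7A11 among the genes with more than 1 count in SW480. GCLM alone of the 9 was lower, by 1.13-fold. Thus 8 members were called higher and 1 lower (edgeR quasi-likelihood test, adjusted p under 0.05), where 25.3% of all genes tested were called higher and 24.7% lower. The libraries did not overlap for 9 of 9 members, as for 56.6% of genes tested. AKR1B10, counted here and below, passed the filter on low counts only through the APC line. It had 52, 39 and 49 counts there and at most 4 in any other library. The calls for HMOX1 and AKR1B10 were the least secure: HMOX1 lost its call in DESeq2 (adjusted p = 0.118) and without SW480 replicate 2, CONTROL replicate 1 or CONTROL replicate 3 (edgeR adjusted p = 0.199, 0.091 and 0.055). AKR1B10 lost it without SW480 replicate 2 or 3 or CONTROL replicate 3 (edgeR adjusted p = 0.0768, 0.0738 and 0.071).

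In the APC line the same genes separated. Against SW480, MGST1, AKR1B10, TXNRD1, SRXN1 and GCLC were higher and SLC7A11, HMOX1, GCLM and NQO1 lower. These are 5 members called higher and 4 lower, where 35.6% of all genes tested were higher and 36.9% lower, and the libraries did not overlap for 9 of 9 members (73.1% of genes tested). Against CONTROL, MGST1, AKR1B10 and TXNRD1 were higher and SLC7A11, HMOX1, NQO1, GCLC and GCLM lower. That comparison called 3 members higher and 5 lower, where 34.8% and 35.4% of genes tested were called, and the libraries did not overlap for 8 of 9 members (73.4% of genes tested). With 72.5% and 70.2% of all genes called in either direction, the number of members called is not in itself a result about them. AKR1B10 was tested only because it was high in the APC line, so its place in these counts gives no added support. The comparisons of the APC line share its libraries, and each is given with its own values.

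**Figure D1:**
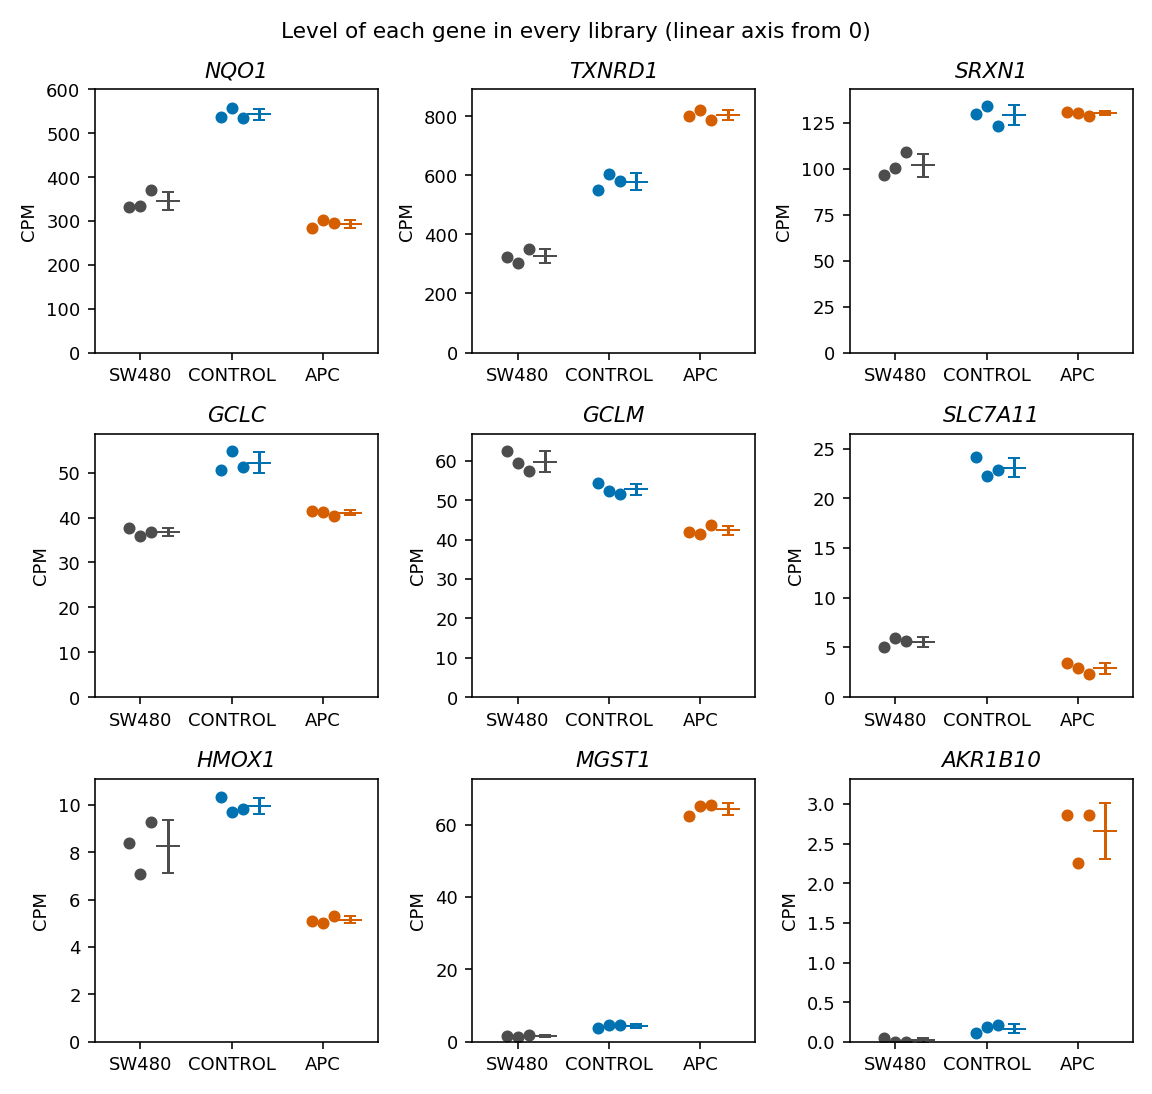
Level of the 9 genes in every library, in CPM on linear axes that start at 0. Points are the 3 libraries of each line, and the bar beside them is their mean ± SD. NQO1, SLC7A11, GCLC and HMOX1 are highest in CONTROL, TXNRD1, MGST1 and AKR1B10 in the APC line, and GCLM in SW480.

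SLC7A11, the cystine carrier of the xCT exchanger that supplies cysteine for glutathione, had the widest fall. It stood at 5.01, 5.95 and 5.69 CPM in SW480 replicates 1 to 3, at 24.1, 22.2 and 22.8 CPM in CONTROL, and at 3.46, 2.89 and 2.34 CPM in the APC line. The 3 lines did not overlap, with CONTROL far above and the APC line below SW480. SLC7A11 was 4.15-fold higher in CONTROL than in SW480 (log2 2.05 ± 0.09 SE, edgeR adjusted p = 1.79e-18). In the APC line it was 7.92-fold lower than in CONTROL (−2.98 ± 0.11, edgeR adjusted p = 1.94e-22) and 1.91-fold lower than in SW480 (−0.93 ± 0.14, edgeR adjusted p = 6.45e-07). The distance of the APC line from its parent was thus much smaller than from the vector line. SLC3A2, the heavy chain that carries SLC7A11 to the membrane, had the same order of lines with smaller steps, 427 ± 16.5 CPM in SW480, 505 ± 15.0 in CONTROL and 360 ± 7.55 in the APC line (SD, n = 3).

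GCLC and GCLM encode the catalytic and the modifier subunit of glutamate-cysteine ligase, the first step of glutathione synthesis. The 2 moved apart from SW480 to CONTROL and from SW480 to the APC line, and both were lower in the APC line than in CONTROL by a like amount. GCLC stood at 37.7, 35.8 and 36.8 CPM in SW480, 50.6, 54.9 and 51.2 in CONTROL, and 41.6, 41.3 and 40.4 in the APC line. GCLM stood at 62.5, 59.4 and 57.4 CPM in SW480, 54.3, 52.3 and 51.5 in CONTROL, and 42.0, 41.4 and 43.7 in the APC line. CONTROL was highest for GCLC and SW480 for GCLM, without overlap of libraries. GCLC was 0.50 ± 0.05 higher in CONTROL than in SW480 on the log2 scale (edgeR adjusted p = 7.12e-10), while GCLM fell by 0.18 ± 0.05 (edgeR adjusted p = 0.00244). In the APC line GCLM fell by 0.50 ± 0.05 relative to SW480 (edgeR adjusted p = 1.13e-10) and by 0.32 ± 0.05 relative to CONTROL (edgeR adjusted p = 1.69e-06). GCLC rose by 0.16 ± 0.05 relative to SW480 (edgeR adjusted p = 0.00826) and fell by 0.34 ± 0.05 relative to CONTROL (edgeR adjusted p = 4.13e-07). Per transcript length (RPKM, reads per kilobase scaled to library size), the ratio of GCLM to GCLC was 2.06, 2.06 and 1.93 in SW480, 1.33, 1.18 and 1.25 in CONTROL, and 1.25, 1.24 and 1.34 in the APC line. This ratio, chosen after the values were seen, was lower in both transfected lines than in SW480, and the ratios of the 2 transfected lines overlapped.

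TXNRD1, the cytosolic thioredoxin reductase, rose in steps from SW480 to CONTROL to the APC line. Its level was 323, 305 and 351 CPM in SW480, 549, 606 and 581 CPM in CONTROL, and 800, 823 and 788 CPM in the APC line. Each line stood clear of the next. The APC line was 2.46-fold above SW480 (log2 1.30 ± 0.04 SE, edgeR adjusted p = 3.31e-21) and 1.39-fold above CONTROL (0.47 ± 0.04, edgeR adjusted p = 6.32e-11), and CONTROL was 1.77-fold above SW480 (0.83 ± 0.04, edgeR adjusted p = 2.36e-15). TXN, its substrate thioredoxin, was highest in CONTROL instead, at 656 ± 15.1 CPM against 518 ± 26.8 in SW480 and 513 ± 19.1 in the APC line. The relatives TXNRD2 and TXNRD3 stood at 12.9 to 28.2 CPM by group.

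SRXN1, sulfiredoxin, which repairs overoxidised peroxiredoxins, was higher in both transfected lines than in the parent and differed little between them. It stood at 96.6, 100.3 and 109 CPM in SW480, 130.0, 134 and 123 CPM in CONTROL, and 131, 131 and 129 CPM in the APC line. The CONTROL libraries spanned those of the APC line, and both lay above SW480. The difference from SW480 was 0.34 ± 0.04 on the log2 scale for CONTROL (edgeR adjusted p = 7.64e-08) and 0.35 ± 0.04 for the APC line (edgeR adjusted p = 1.1e-08). Between the APC line and CONTROL it did not pass, at 0.01 ± 0.04 with a 95% interval from −0.09 to 0.12 (edgeR adjusted p = 0.812).

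NQO1, a quinone reductase and the member most often read as a gauge of NRF2 activity, was among the 2 most abundant members per transcript length in all 3 lines. Its level was 333, 335 and 371 CPM in SW480, 536, 558 and 535 CPM in CONTROL, and 283, 302 and 296 CPM in the APC line. CONTROL was high and the APC line lay below SW480 without overlap. NQO1 rose 1.57-fold from SW480 to CONTROL (0.65 ± 0.04, edgeR adjusted p = 3.94e-15), and the APC line was 1.85-fold below CONTROL (−0.89 ± 0.04, edgeR adjusted p = 1.07e-19). Its distance from SW480 was smaller, 1.18-fold (−0.24 ± 0.04, edgeR adjusted p = 4.55e-06). NQO2, a related quinone reductase, had the same order of lines, at 33.1 ± 0.912, 37.7 ± 1.32 and 26.7 ± 1.21 CPM in SW480, CONTROL and the APC line.

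HMOX1, the inducible haem oxygenase, was low in all libraries. It stood at 8.40, 7.07 and 9.29 CPM in SW480, 10.3, 9.71 and 9.82 CPM in CONTROL, and 5.11, 5.03 and 5.32 CPM in the APC line, which was below all other libraries. The APC line was 1.60-fold lower than SW480 (−0.68 ± 0.12, edgeR adjusted p = 4.17e-06) and 1.93-fold lower than CONTROL (−0.95 ± 0.11, edgeR adjusted p = 4.63e-09). CONTROL against SW480 was the smaller step (0.27 ± 0.10, edgeR adjusted p = 0.0268) whose call was lost as given above. HMOX2, the constitutive haem oxygenase, moved the other way and was 61.2 ± 3.49 CPM in SW480, 63.2 ± 2.56 in CONTROL and 76.7 ± 4.04 in the APC line (APC against SW480 0.33 ± 0.05, edgeR adjusted p = 6.95e-07).

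MGST1, a membrane-bound glutathione transferase and peroxidase, was the member that differed most among those with counts in every library. It stood at 1.56, 1.39 and 1.88 CPM in SW480, 3.76, 4.67 and 4.57 CPM in CONTROL, and 62.4, 65.3 and 65.3 CPM in the APC line. CONTROL lay above SW480, and the APC line was far above both. MGST1 in the APC line exceeded SW480 39.8-fold (5.31 ± 0.10, edgeR adjusted p = 2.08e-31) and CONTROL 14.9-fold (3.89 ± 0.08, edgeR adjusted p = 1.21e-29), and CONTROL exceeded SW480 2.68-fold (1.42 ± 0.16, edgeR adjusted p = 6.69e-09). The table lists 9 transcripts of the gene with largely shared reads, and the longest, which the authors kept in their gene-level table, took 16.7% of the count of the highest transcript in SW480, 34.6% in CONTROL and 27.6% in the APC line. With that transcript the log2 fold changes were 6.01, 3.57 and 2.45 in the same order. The related MGST2 and MGST3 were not called in any comparison, at 24.5 to 26.1 and 49.4 to 52.6 CPM by group. For MGST2 the intervals of the difference ran from −0.10 to 0.28 for the APC line against SW480 and from −0.16 to 0.21 against CONTROL.

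AKR1B10, an aldo-keto reductase that clears reactive aldehydes and retinal, was close to absent outside the APC line. The counts were 1, 0 and 0 in SW480, 2, 3 and 4 in CONTROL, and 52, 39 and 49 in the APC line, the last equal to 2.86, 2.26 and 2.86 CPM. The APC libraries were far above the rest, and CONTROL differed from SW480 by a few reads. The APC line had a ratio of 149 to SW480 with its 1 count (95% counting interval 26.3 to 5914) and was 15.4-fold above CONTROL (3.95 ± 0.34, edgeR adjusted p = 2.88e-12). The ratio of CONTROL to SW480 was 9.28 (95% counting interval 1.29 to 407). AKR1B10 has a close relative in AKR1B15, with which it can share reads. AKR1B15 had 0, 4 and 2 counts in the APC line, 1, 1 and 0 in CONTROL and 0 in SW480, too few to be tested. AKR1B1, aldose reductase, was not called between the APC line and SW480, with 0.477 ± 0.139 and 0.465 ± 0.202 CPM. CONTROL, at 1.11 ± 0.358 CPM, was above SW480 (1.26 ± 0.35, edgeR adjusted p = 0.00293), and the APC line was below CONTROL (−1.23 ± 0.35, edgeR adjusted p = 0.00241). Of the 9 partners and relatives tested of 10 listed, 5 were higher and 0 lower in CONTROL against SW480, 1 was higher and 2 lower in APC against SW480, and 1 was higher and 5 lower in APC against CONTROL. In all, 55.6%, 33.3% and 66.7% of them were called, where 50%, 72.5% and 70.2% of all genes tested were.

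**Figure D2:**
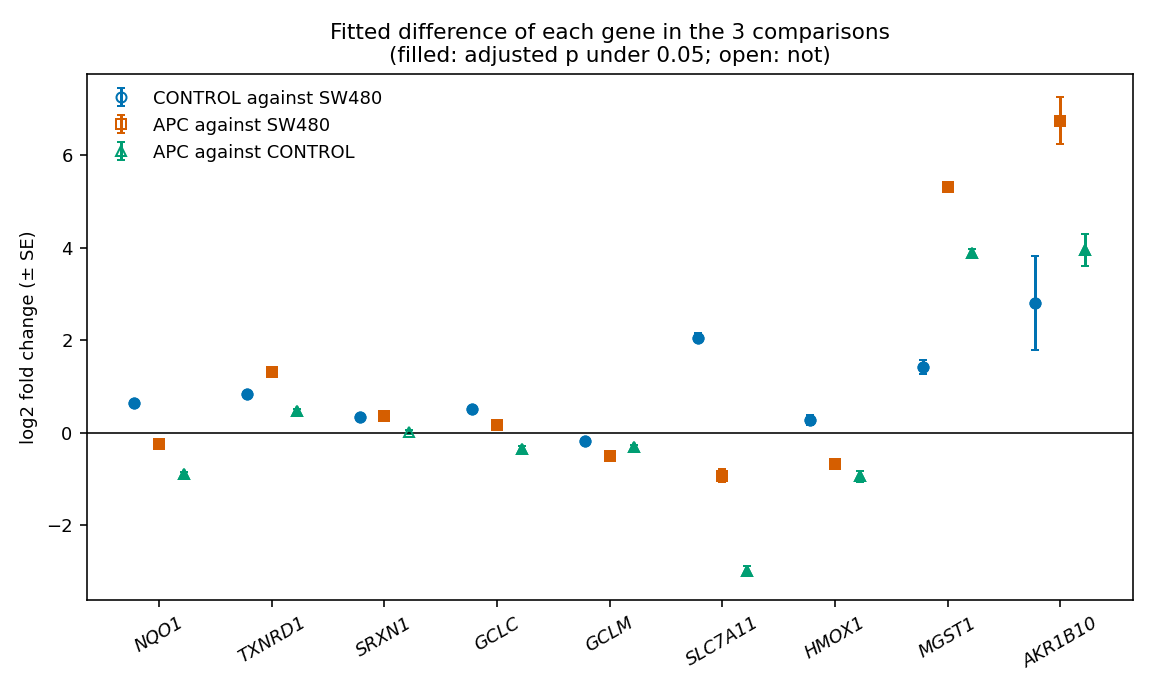
Log2 fold change of each of the 9 genes in the 3 comparisons, with SE bars from the fit of all 9 libraries. Filled symbols passed an adjusted p of 0.05. The circles of CONTROL against SW480 lie above 0 for all genes but GCLM, whereas the triangles of APC against CONTROL run from −2.98 for SLC7A11 to 3.95 for AKR1B10. The fitted difference of AKR1B10 from SW480, which had 1 count, depends on the prior count.

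Levels can be compared between genes per transcript length. By RPKM the order in SW480 was NQO1 at 119 ± 6.51, TXNRD1 at 68.1 ± 4.41, SRXN1 at 33.9 ± 1.89, GCLM at 17.4 ± 0.844, GCLC at 8.62 ± 0.228, HMOX1 at 4.64 ± 0.601, MGST1 at 1.47 ± 0.215, SLC7A11 at 0.514 ± 0.0445 and AKR1B10 at 0.0101 ± 0.0175 (SD, n = 3). CONTROL had the same order, from NQO1 at 185 ± 3.80 to AKR1B10 at 0.0919 ± 0.0288 RPKM. In the APC line TXNRD1 led at 164 ± 4.07 RPKM, followed by NQO1 at 99.1 ± 4.08 and MGST1 at 57.4 ± 2.07, which had passed SRXN1 at 42.3 ± 0.279. SLC7A11 came last there, at 0.262 ± 0.0485 RPKM, below AKR1B10 at 1.46 ± 0.187. Neighbours in these 3 orders did not overlap between their libraries. The ratio of NQO1 to TXNRD1 in RPKM, also chosen after the values were seen, was 1.70 to 1.82 in SW480, 1.52 to 1.61 in CONTROL and 0.585 to 0.620 in the APC line.

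**Figure D3:**
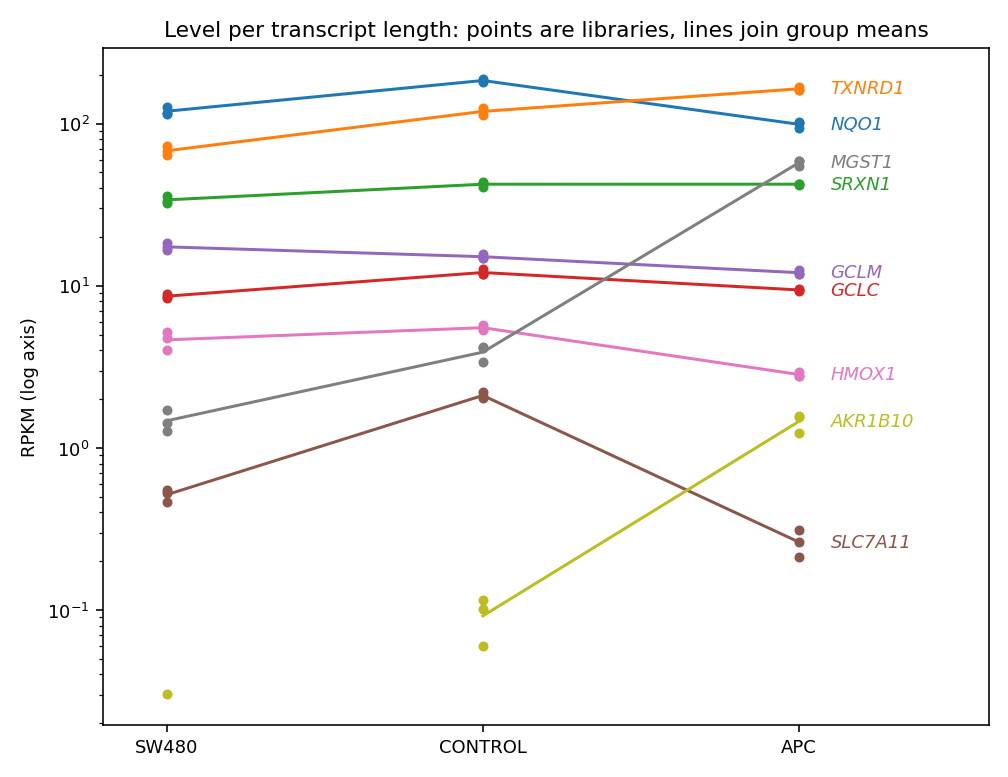
Level per transcript length (RPKM, log axis) of the 9 genes by line, with a point for each library and lines that join the group means. AKR1B10 was listed at 0 in 2 SW480 libraries, which a log axis cannot show, and its line therefore starts at CONTROL. In the APC line MGST1 lies above SRXN1, and SLC7A11 lies lowest.

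Transcripts of the regulators of the pathway moved by at most 0.57 on the log2 scale in either direction. The members GCLC, GCLM and SRXN1 stayed within that size too. NFE2L2 itself stood at 97.5, 110 and 105 CPM in SW480, 125, 129 and 127 in CONTROL, and 104, 107 and 105 in the APC line. It was 1.22-fold higher in CONTROL than in SW480 (0.28 ± 0.04, edgeR adjusted p = 1.27e-06) and 1.20-fold lower in the APC line than in CONTROL (−0.26 ± 0.04, edgeR adjusted p = 1.76e-06). Between the APC line and SW480 it was not called (0.02 ± 0.04, 95% interval −0.09 to 0.13). These are transcripts, and NRF2 is controlled largely through its stability, so they do not measure its activity. KEAP1 was higher in the APC line, at 106 ± 5.12 CPM against 91.3 ± 4.60 in SW480 and 88.1 ± 3.48 in CONTROL (0.21 ± 0.05 and 0.26 ± 0.05, edgeR adjusted p = 0.000131 and 7.53e-06). BACH1, the repressor that keeps HMOX1 low, was highest in CONTROL, at 64.9 ± 0.810 CPM against 48.0 ± 2.29 in SW480 and 45.3 ± 0.236 in the APC line. SQSTM1, which encodes p62, a KEAP1-binding autophagy receptor and itself an NRF2 target, was 1.47-fold higher in CONTROL than in SW480 (0.55 ± 0.04, edgeR adjusted p = 4.27e-14), 1.41-fold lower in the APC line than in CONTROL and not called between the APC line and SW480.

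GSK3B and BTRC act in a second route that degrades NRF2, and both proteins also serve the destruction of beta-catenin. GSK3B was 1.31-fold lower in the APC line than in SW480 (−0.39 ± 0.05, edgeR adjusted p = 1.08e-08) and BTRC 1.49-fold higher (0.57 ± 0.06, edgeR adjusted p = 7.69e-10). Both were also called in these directions against CONTROL, at −0.20 ± 0.05 and 0.41 ± 0.06 (edgeR adjusted p = 0.000509 and 6.01e-07). CONTROL itself differed from SW480 in the same directions, at −0.19 ± 0.05 for GSK3B and 0.16 ± 0.07 for BTRC (edgeR adjusted p = 0.00136 and 0.0356). MAFG, a small MAF partner of NRF2, was 0.22 ± 0.05 higher than either other line (edgeR adjusted p = 0.000122 and 0.000137). Of 12 regulators tested, 4 were higher and 1 lower in CONTROL against SW480, 4 and 3 in APC against SW480, and 4 and 6 in APC against CONTROL. These are 41.7%, 58.3% and 83.3% of the regulators, beside 50%, 72.5% and 70.2% of all genes tested. Their log2 fold changes stayed between −0.52 and 0.57 in the 3 comparisons.

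Other known NRF2 targets were mostly higher in CONTROL than in SW480. Of 26 tested of 28 listed, 18 were higher and 2 lower in CONTROL, with a median log2 fold change of 0.40 against −0.01 for all genes tested, of which 25.3% were higher and 24.7% lower. The 2 lower were SLC48A1, a haem transporter gene, and TKT, the transketolase gene (−0.16 and −0.19). Among the higher genes, TRIM16 (whose reads can be shared with its near copy TRIM16L) rose from 76.5 to 131 CPM, BLVRA and BLVRB, the biliverdin reductases that follow haem oxygenase, from 65.9 to 106 and from 35.3 to 56.3 CPM, and FTL, the ferritin light chain gene, from 1606 to 2501 CPM; FTL has processed copies that can share reads. In the APC line 10 were higher and 9 lower than in SW480 (median −0.05), and the 73.1% called is close to the 72.5% of all genes tested. Against CONTROL 5 were higher and 14 lower (median −0.25), where 34.8% and 35.4% of all genes tested were called. ALDH3A1, an aldehyde dehydrogenase gene, rose in steps like TXNRD1, from 7.38 to 13.8 to 31.7 CPM. SLC48A1 was 264 CPM in SW480, 236 in CONTROL and 87.7 in the APC line, and PTGR1 and PIR fell below both other lines, to 32.3 and 19.3 CPM.

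Genes that build, recycle or use glutathione were mostly lower in the APC line. Of 30 tested of 35 listed, 21 were lower and 5 higher than in SW480 (median −0.54), and 21 were lower and 2 higher than in CONTROL (median −0.46). Of all genes tested, 36.9% were lower and 35.6% higher than in SW480, and 35.4% lower and 34.8% higher than in CONTROL. For CONTROL against SW480, 16 were higher and 6 lower (median 0.20), beside 25.3% and 24.7% of all genes tested. GSTM4, a mu-class glutathione transferase gene whose reads can be shared with its close relatives, stood at 57.3 CPM in SW480, 71.0 in CONTROL and 12.4 in the APC line. CBS, the first enzyme from homocysteine towards cysteine, fell from 38.1 and 43.7 to 16.6 CPM, GLRX, glutaredoxin, from 71.4 and 93.8 to 45.6 CPM, and GSS, the second step of glutathione synthesis, from 156 and 139 to 114 CPM. GSR, glutathione reductase, was higher instead in CONTROL and in the APC line than in SW480, at 98.9 and 101 against 75.5 CPM. GSTO1, an omega-class transferase gene, had a like pattern, at 217 and 197 against 129 CPM. CHAC2 and GGCT, of glutathione breakdown, were also higher in both transfected lines. CHAC2 stood at 23.7, 32.1 and 35.6 CPM in SW480, CONTROL and the APC line, and GGCT at 76.3, 104 and 108 CPM. GGCT was not called between the APC line and CONTROL. Other breakdown genes of the list, CHAC1, GGT5 and GGT7, were called lower in the APC line than in both other lines. CHAC1 stood at 3.31, 5.82 and 1.48 CPM in SW480, CONTROL and the APC line, and GGT5 at 22.6, 37.9 and 13.2 CPM. GGT7 stood at 3.06, 1.68 and 0.323 CPM, with 6, 4 and 7 counts in the APC libraries. GGT1 was not called in any comparison. GPX4, which detoxifies lipid peroxides, stood at 239, 223 and 253 CPM in SW480, CONTROL and the APC line.

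Peroxiredoxins and other antioxidant enzymes rose in CONTROL for 9 of 11 genes and fell for 2, with a median of 0.21, where 25.3% of all genes tested were higher and 24.7% lower. One of the 2, CAT, the catalase gene, was near the threshold (−0.12, edgeR adjusted p = 0.0428) and lost its call in 9 of 18 alternatives. The APC line had 6 of them above SW480 and 2 below (median 0.09), and relative to CONTROL 6 were higher and 4 lower (median 0.15). The 72.7% called against SW480 is close to the 72.5% of all genes tested, and 90.9% were called against CONTROL, beside 70.2%. SOD2, the mitochondrial superoxide dismutase, stood at 34.7 CPM in SW480, 44.9 in CONTROL and 166 in the APC line, with log2 fold changes of 2.26 and 1.89 for the APC line. PRDX3 and PRDX5, peroxiredoxins of the mitochondria, rose to 417 and 122 CPM, from 199 and 74.0 in SW480 and 232 and 83.4 in CONTROL. PRDX6 and SOD1 were highest in CONTROL, at 294 and 393 CPM against 214 and 325 in SW480 and 221 and 306 in the APC line. TXNIP, which encodes an inhibitor of thioredoxin, was likewise high in CONTROL, at 243 CPM against 120 in SW480 and 125 in the APC line.

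**Figure D4:**
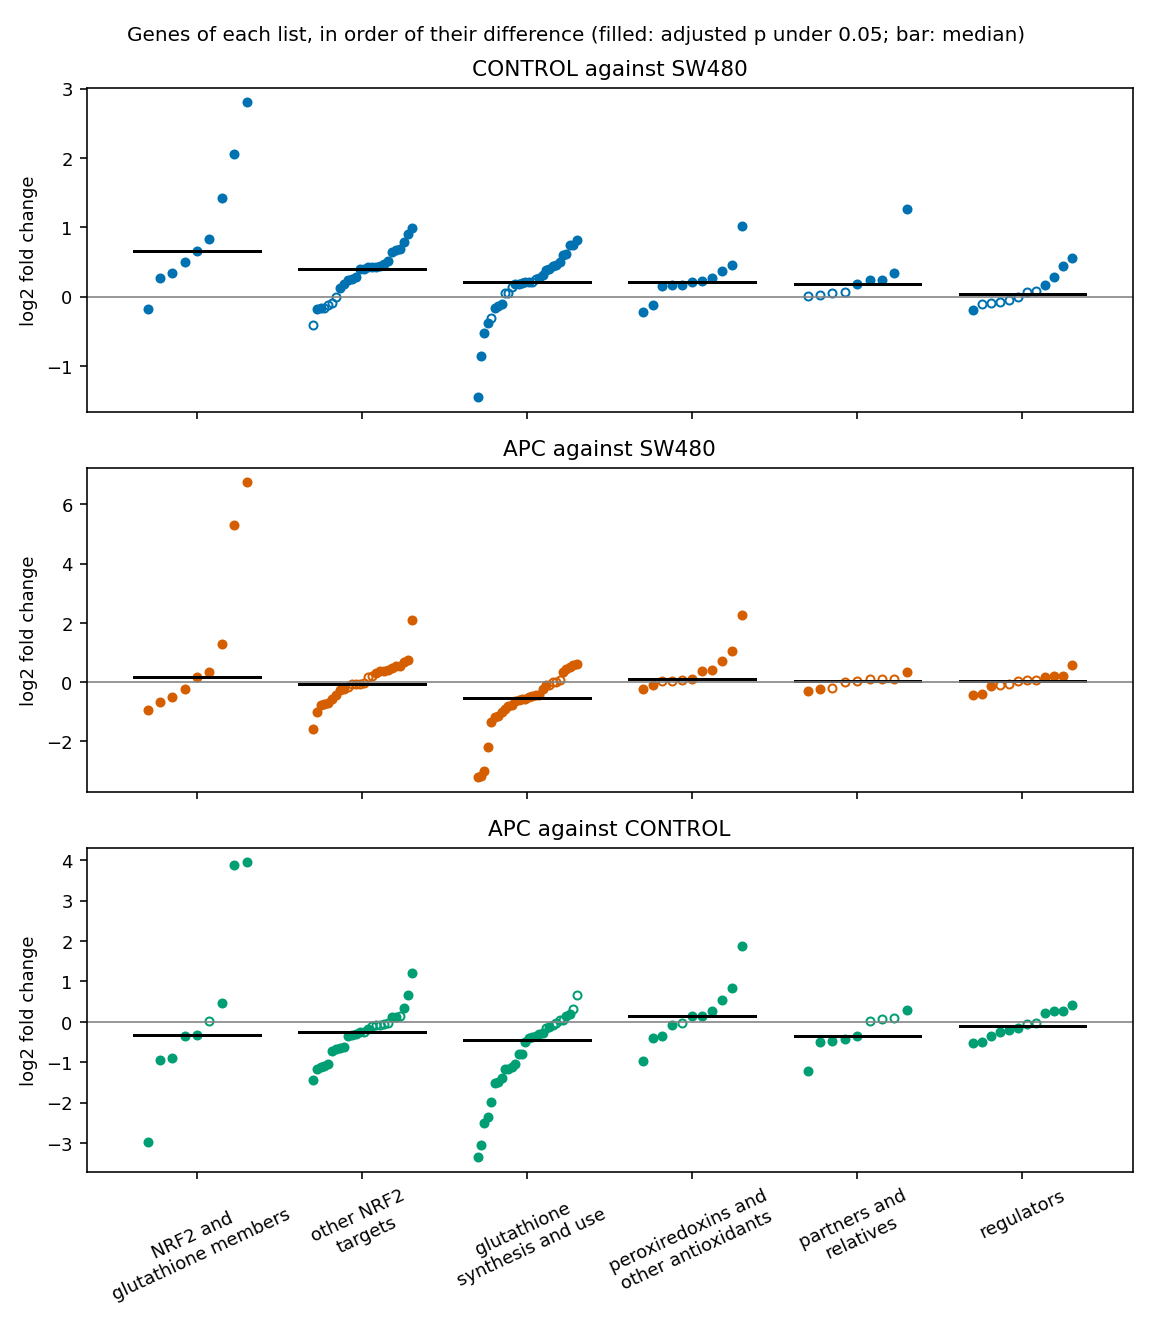
Log2 fold changes of the genes of each list in the 3 comparisons, in order of their size. Filled points passed an adjusted p of 0.05 and bars mark the medians, such as 0.40 for other NRF2 targets in CONTROL against SW480 and −0.54 for glutathione genes in APC against SW480.

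The 9 genes fell into a few patterns over the lines, which are described here by the correlation of log2 CPM over 9 libraries that share 3 lines. NQO1 and SLC7A11 were alike (r = 0.981), as were MGST1 and AKR1B10 (r = 0.993), whereas GCLM ran opposite to MGST1 (r = −0.98) and TXNRD1 (r = −0.942). Among all genes tested, those closest to SLC7A11 were URB1 and PAFAH2 (r = 0.9956 and 0.9952), those closest to TXNRD1 were PPIF and SPR (0.9986 and 0.9971), those closest to MGST1 were LCN2 and MAL2 (0.9988 and 0.9985), and those closest to AKR1B10 were CX3CL1 and CCDC144NL (both 0.9975). With 3 lines, such values mostly reflect the order and spacing of the group means.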

How the data were processed

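The submitters' processing notes name Trimmomatic, TopHat, GATK and build hg19. Counter, strand setting and annotation: not given in the sources used here. Deposited counts are whole reads per RefSeq transcript, not normalised. The deposited RPKM values equal the authors' count over the transcript length and a library constant, within a relative tolerance of 0.0001, for 100% of the transcripts in both tables (4738 more had RPKM values only). Transcripts of a gene can hold the same reads, so 1 transcript per gene, that with the highest total count, was used for 20878 gene names, of which 62 of 65 names altered to dates were repaired. Columns were matched to samples by name.

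All 9 libraries were fitted together with edgeR 4.0.16 in R 4.3.3 (TMM, filterByExpr, robust quasi-likelihood), and p-values were adjusted by Benjamini and Hochberg over 14255 genes. The SE is the log2 fold change divided by the root of F, and intervals use 6 degrees of freedom. Alternatives were DESeq2 1.42.0, limma 3.58.1 on log2 RPKM and others named in the closing section. The script was tested on simulated data. Libraries of a line differed by 1.36 to 5.61 in chi-square per degree of freedom. Nothing says that plates came from separate cultures, so p-values measure the spread between plates, which may be technical.

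The members and lists were chosen with earlier results of these data known. Named genes were the 9 members, all regulators, partners and relatives, from each other list up to 4 called genes per direction and comparison by adjusted p without overlap of libraries, and, for members spanning more than 1 log2 unit, the 2 genes most correlated with them. Other genes were named for single values of the marker lists. HMOX1, SLC7A11 and AKR1B10 had no promoter window here. One gene that the rule names is not reported here.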

Additional observations from a re-analysis of the deposited data

How the results depend on the processing

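Each result was recomputed with DESeq2, RLE scaling, limma on log2(RPKM + 1) or log2(RPKM + 0.1), summed transcripts, an unfiltered table, fits of the 6 libraries compared, a replicate block, each library left out and, chosen after seeing the data, the transcript of the authors' gene-level table. Between 7 and 9 members stayed called in CONTROL against SW480, and 9 and 8 in the APC comparisons. Without 1 library, 9916 to 10389, 9449 to 10262 and 6185 to 7299 genes were called in APC against SW480, APC against CONTROL and CONTROL against SW480. Deviations of same-numbered plates from their group means had correlations of −0.069 to 0.106, beside −0.094 to 0.068 for plates of different number. The highest, 0.106, was that of replicate 1 of SW480 with replicate 1 of the APC line. With the replicate block 10297, 9993 and 7109 genes were called, against 10335, 10006 and 7131 without it, with the same number of members. The pseudocount shrank low genes: with a pseudocount of 1, SLC7A11 in APC against CONTROL went from −2.98 to −1.30 and AKR1B10 from 3.95 to 1.17. AKR1B10 in CONTROL against SW480 lost its call at a pseudocount of 1 (limma adjusted p = 0.132). Named genes that lost a call in 6 or more of 18 alternatives were MAFF (13) and SOD1 (12) in APC against SW480, PRDX1 (13), CHAC2 (8) and ABCC3 (7) in APC against CONTROL, and CAT (9), GPX4 (7) and BTRC (6) in CONTROL against SW480.

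Reversals were seen only for differences that passed no test in either setting. In APC against SW480, NFE2L2 went to −0.01 in both limma fits and spanned −0.03 to 0.06 without 1 library, CAT to −0.01 in both limma fits, RBX1 spanned −0.03 to 0.10, TXN −0.05 to 0.02 and AKR1B1 −0.22 to 0.44 without 1 library. In APC against CONTROL, SRXN1 spanned −0.01 to 0.04, RBX1 −0.06 to 0.02 and MGST2 −0.05 to 0.08, and in CONTROL against SW480 MGST3 spanned −0.02 to 0.08. The cause was not tested. Depth limits AKR1B10 and AKR1B15, which had 0 or a few counts outside the APC line.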
